A study of Mus musculus with 12 samples.

Results

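The genes described here are 39 genes that copy DNA in S phase or prepare cells for it, followed in mouse hematopoietic stem and progenitor cells with a knockdown of the cohesin subunit Rad21. They were taken from a list of gene symbols, matched through the Ensembl identifiers of the counts, and kept where at least 3 of the 12 libraries held 10 or more counts. All 39 listed genes, of 46078 in the counts, were found and kept, and each had at least 10 counts in all 12 libraries. The lowest count of any member in any library was 96 and the highest was 22417.

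The study knocked down Rad21 to ask how cohesin acts in hematopoietic cells under stress, and RNA-seq was run on 4 groups of 3 libraries. In culture, LSK cells (lineage-negative, Sca-1+, Kit+ bone marrow cells) of C57BL/6 mice were infected with a lentivirus that carried GFP and a short hairpin RNA against Rad21 (shRad21) or luciferase (shLuci, the control), were cultured, and were sorted as GFP+CD48-Sca-1+ cells at day 3. In vivo, LSK cells infected with the same kinds of virus were transplanted into lethally irradiated mice, and GFP+ LSK cells were sorted from the recipients, 3 months later by the labels, whereas the paper's methods give a later time. The controls thus also carried an integrated lentivirus and had been cultured or transplanted. The labels do not name the Rad21 hairpin or the age of the donors. The culture libraries were made with the TruSeq kit and those in vivo with SMART-Seq v4 and Nextera XT, each experiment in a single lane, so that the cells, the gate, the kit and the lane cannot be told apart between experiments. Nothing in the labels says that replicates came from separate cultures or animals, so the p-values measure the spread between these samples, which may be technical.

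Before a cell divides, the origin recognition complex with Cdc6 and Cdt1 loads the MCM helicase on DNA. Kinases of the G1/S transition then recruit Cdc45 and GINS to fire the helicase, and DNA polymerases, held by the ring-shaped clamp PCNA, copy both strands while histone chaperones rebuild chromatin behind the fork. Many of these genes are switched on together by E2F transcription factors, and quiescent stem cells in bone marrow express them at low levels until they enter the cell cycle.

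The deposited counts summed to between 15235129 and 29846689 per library. Levels are given here as CPM, the counts of a gene relative to the size of the library, on 1 TMM scale for all 12 libraries. Rad21 itself lay between 383.6 and 418.7 CPM in the shLuci and between 128.3 and 153.8 CPM in the shRad21 culture libraries, and between 117.7 and 124.7 CPM in the shLuci and between 43.4 and 47.67 CPM in the shRad21 in vivo libraries, so each library followed its label. The 9 LSK marker genes summed to between 2660 and 4020 CPM in all libraries. Cd48, which the culture sort selected against, lay between 29.4 and 50.2 CPM in culture and between 136 and 302 CPM in vivo.

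Some libraries stood apart in the replication genes. Of the 3 shRad21 in vivo libraries, replicate 2 held the highest value of its group for 31 of the 39 members and the lowest for 0, with a median log2 difference of 0.17 from the mean of the others. Of the 3 shLuci culture libraries, replicate 2 was the lowest for 32 members, with a median log2 difference of -0.19. Of the 3 shRad21 culture libraries, replicate 1 was the highest for 31. Each comparison between groups that holds such a library is also given without it.

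A promoter feature that the choice of genes did not use was more frequent among the members than among all genes. RefSeq promoter windows on GRCm38.p6, from 250 bases before to 50 bases after the start of transcription, were available for 30 of the 39 members, and the outermost window was read for each gene. A word known as an E2F binding sequence (TTTCCCGC, TTTGGCGC, TTTGGCGG or TTTCGCGC, on either strand, overlaps allowed) stood in 13 of these 30 windows, or 43.3%, against 2.43% of the windows of 27025 genes. Among other replication genes that are not members the share was 33.3%, and among mitosis genes it was 3.85%. The shorter word CCAAT, on either strand, stood in 60.0% of the members' windows, in 80.8% of those of mitosis genes and in 38.0% of all. The 250 bases before the start are printed for 4 members that hold E2F words there, chosen to show single, overlapping and repeated words, and for Tyms and Chaf1b, the genes with the lowest adjusted p in vivo and in culture, whose windows hold none. They are read 5′ to 3′ on the gene's strand, and capitals mark the E2F words. Mcm5 lies on the plus strand (chr8:75109259-75109508), Mcm6 on the minus strand (chr1:128359706-128359955), Pola1 on the minus strand (chrX:93632156-93632405), Chaf1a on the plus strand (chr17:56040166-56040415), Tyms on the minus strand (chr5:30073626-30073875) and Chaf1b on the plus strand (chr16:93883651-93883900).
Mcm5: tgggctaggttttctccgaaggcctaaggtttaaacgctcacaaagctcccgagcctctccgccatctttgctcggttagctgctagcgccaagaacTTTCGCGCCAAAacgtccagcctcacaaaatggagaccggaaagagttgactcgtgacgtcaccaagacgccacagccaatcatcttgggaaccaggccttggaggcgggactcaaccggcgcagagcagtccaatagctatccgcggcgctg
Mcm6: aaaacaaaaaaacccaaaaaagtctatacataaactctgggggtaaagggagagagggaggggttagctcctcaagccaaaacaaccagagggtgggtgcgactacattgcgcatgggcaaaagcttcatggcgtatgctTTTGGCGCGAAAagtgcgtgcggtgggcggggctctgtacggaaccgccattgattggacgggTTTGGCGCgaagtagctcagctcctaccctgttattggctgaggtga
Pola1: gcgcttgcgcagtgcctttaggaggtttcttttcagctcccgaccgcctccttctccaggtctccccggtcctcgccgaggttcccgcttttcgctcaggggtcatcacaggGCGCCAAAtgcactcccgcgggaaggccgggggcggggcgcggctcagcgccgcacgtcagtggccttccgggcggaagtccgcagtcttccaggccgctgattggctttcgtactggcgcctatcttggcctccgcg
Chaf1a: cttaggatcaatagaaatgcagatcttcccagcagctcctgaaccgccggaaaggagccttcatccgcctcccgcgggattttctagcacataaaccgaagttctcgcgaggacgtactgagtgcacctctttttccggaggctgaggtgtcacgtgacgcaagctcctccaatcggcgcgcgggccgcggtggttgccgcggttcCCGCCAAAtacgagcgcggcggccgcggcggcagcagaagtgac
Tyms: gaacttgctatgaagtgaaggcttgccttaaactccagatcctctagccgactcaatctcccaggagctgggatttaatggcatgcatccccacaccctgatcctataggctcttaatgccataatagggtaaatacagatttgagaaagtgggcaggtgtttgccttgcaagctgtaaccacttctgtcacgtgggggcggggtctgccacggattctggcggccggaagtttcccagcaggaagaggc
Chaf1b: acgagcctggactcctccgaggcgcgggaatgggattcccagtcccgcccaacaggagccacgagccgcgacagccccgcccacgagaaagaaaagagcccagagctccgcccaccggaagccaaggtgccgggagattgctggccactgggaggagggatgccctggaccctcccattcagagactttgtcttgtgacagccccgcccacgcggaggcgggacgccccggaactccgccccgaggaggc
The overlapping words of Mcm5 and Mcm6 are read on both strands, and Mcm6 holds a further word nearer its start. A match of letters is a description and does not show binding.

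The members were next compared between control cells of the 2 experiments. Most replication genes were lower in the cultured GFP+CD48-Sca-1+ cells than in the LSK cells taken from recipients. By edgeR's quasi-likelihood test with a Benjamini-Hochberg adjusted p under 0.05, 34 of the 39 members (87.2%) were lower in culture, against 37.1% of all 17050 genes tested, and 2 were higher, against 37.1% of all genes. The groups did not overlap, with culture lower, for 32 members, against 37.2% of all genes. The median log2 difference over the 39 members was -0.78, against -0.01 over all genes. Without shLuci culture replicate 2, 31 members were lower and 2 higher in culture, against 6057 and 6123 of 17580 genes, with a median of -0.68. The members together held between 0.358 and 0.407% of the counts in the shLuci culture libraries and between 0.785 and 0.819% in the shLuci in vivo libraries. In bulk RNA, fewer cells in S phase and less RNA per cell cannot be told apart. Nor can either be told from the gate, kit and lane, which differ between the experiments.

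Markers of other cell types moved in this comparison too. The 6 granulocyte and monocyte markers summed to 81.9 ± 28.3 CPM in shLuci culture and 1670 ± 305 CPM in shLuci in vivo cells, and the 4 B-cell markers to 26.7 ± 0.262 and 97.7 ± 14.3 CPM (mean ± SD, n = 3). The 5 erythroid markers summed to between 150 and 187 CPM and between 43.4 and 63.5 CPM, and the 3 megakaryocyte markers to 592 ± 53.6 and 244 ± 33.5 CPM, both higher in culture. The 9 LSK markers summed to 2930 ± 130 and 3890 ± 112 CPM, and the 4 T-cell markers were near 0, at 1.33 ± 0.0886 and 2.65 ± 1.26 CPM. Ly6g of neutrophils and Hba-a1 of red cells had 0 counts in all culture libraries. The part of these cells in the replication genes was not tested.

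**Figure D1:**
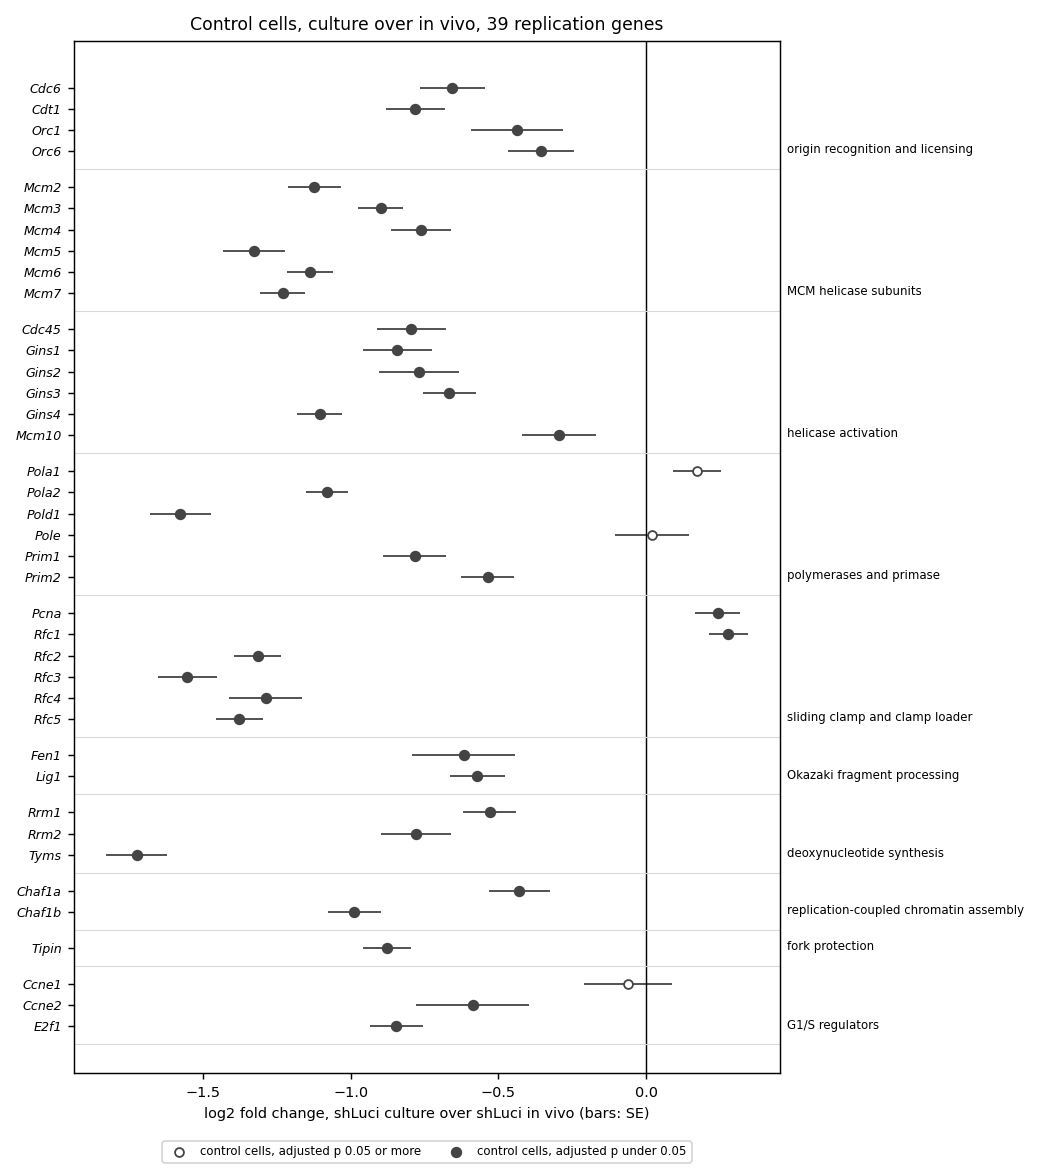
Log2 fold change of each of the 39 members between control cells (shLuci culture over shLuci in vivo, x axis), ordered by role, with the standard error as a bar and filled points for an edgeR adjusted p under 0.05. Points lie left of 0 for 35 members and reach -1.72 for Tyms, whereas Rfc1 and Pcna are the filled points to the right of 0.

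All 6 subunits of the MCM helicase, which unwinds DNA at the fork, were lower in culture, with log2 differences from -0.76 for Mcm4 to -1.33 for Mcm5. So were all 6 genes that activate the helicase, from -0.30 for Mcm10 to -1.11 for Gins4, and all 4 of origin recognition and licensing, from -0.36 for Orc6 to -0.78 for Cdt1. Orc6 is among the genes whose libraries overlapped, and its difference turned to 0.035 with offsets for GC content and length. Both Okazaki fragment genes, the ligase Lig1 (-0.57) and the flap nuclease Fen1 (-0.62), the fork protection gene Tipin (-0.88) and both chromatin assembly genes, Chaf1a (-0.43) and Chaf1b (-0.99), were also lower. Fen1 shares 84.2% of its exonic bases with Tmem258 and an antisense gene, and Chaf1a shares 52.5% with Ubxn6, so the counts of both are uncertain. The calls of Mcm10, Orc1, Orc6, Fen1 and Ccne2 were lost under at least 1 alternative, the omission of a library or the offsets.

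Tyms, which makes thymidylate for DNA synthesis, had the largest difference. Its levels were 53.55, 40.05 and 44.65 CPM in the shLuci culture libraries and 152.6, 148.7 and 154.2 CPM in the shLuci in vivo libraries, a log2 difference of -1.72 (SE 0.10, edgeR's Benjamini-Hochberg adjusted p = 1.04e-09). All 3 culture libraries lay far below all 3 in vivo libraries. The ribonucleotide reductase subunits Rrm1 (-0.53) and Rrm2 (-0.78), which make deoxynucleotides, were lower by less.

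The polymerases were not uniform. Pold1, the catalytic subunit of the polymerase that copies the lagging strand, was at 122.2, 89.85 and 122.1 CPM in culture and 354.1, 322.3 and 319.6 CPM in vivo, with no overlap (log2 difference -1.58, SE 0.10, edgeR's Benjamini-Hochberg adjusted p = 2.68e-09). Pole, the catalytic subunit of the leading strand polymerase, gave 0.02 (SE 0.12), and Pola1, the catalytic subunit that starts each strand, gave 0.17 (SE 0.08), both short of the threshold, although Pola1 passed with the replicate block (edgeR's adjusted p = 0.0452). The partner of Pola1, Pola2, was lower by contrast at -1.08, as were the primase genes Prim1 (-0.78) and Prim2 (-0.54). Between the G1/S regulators, E2f1 (-0.85) and Ccne2 (-0.59) were lower and Ccne1 (-0.06, SE 0.15) was not called. The libraries of Ccne2 overlapped.

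The clamp and its loader divided in the same way. Rfc2, Rfc3, Rfc4 and Rfc5, the small subunits of the loader that opens PCNA rings, were lower in culture by between -1.29 and -1.55, whereas the large subunit Rfc1 (0.28, SE 0.07, edgeR's Benjamini-Hochberg adjusted p = 0.00138) and the clamp Pcna (0.24, SE 0.08, edgeR's Benjamini-Hochberg adjusted p = 0.00935) were higher. Both calls were lost when libraries were scaled by their size alone, which left Rfc1 at 0.10 and Pcna at 0.07. Of Pcna's 51-base words, 18.9% also occur in other genes, mostly a processed copy, so its counts are less certain.

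Levels between genes were compared per kilobase of the principal transcript. Among the loader subunits in shLuci in vivo cells, Rfc2 stood at 88.6 ± 2.89, Rfc4 at 74.1 ± 4.30, Rfc3 at 73.7 ± 7.22, Rfc5 at 58.2 ± 4.33 and Rfc1 at 31.8 ± 2.12 CPM per kilobase (mean ± SD, n = 3), so Rfc1 was the lowest and Rfc4 and Rfc3 did not differ beyond their spread. In shLuci culture cells Rfc1 stood at 38.6 ± 1.14 and Rfc2 at 35.6 ± 3.37 CPM per kilobase, which overlap, and Rfc4, Rfc3 and Rfc5 at 30.5 ± 6.62, 25.2 ± 1.16 and 22.5 ± 1.99. Rfc1 thus went from the lowest mean of the loader in vivo to the highest in culture. In the MCM helicase, which holds its subunits in equal number, Mcm6 had the highest level in both settings, 333 ± 8.42 in vivo and 151 ± 6.19 CPM per kilobase in culture, and Mcm3 followed with 211 ± 2.29 and 113 ± 4.47. The lowest were Mcm4 in vivo (89.4 ± 4.10) and Mcm7 in culture (46.1 ± 3.01). In GINS, Gins4 stood above the other 3 subunits, at 67.0 ± 2.19 in vivo and 31.2 ± 2.75 in culture, with Gins2 the lowest at 11.8 ± 1.04 and 6.98 ± 1.56 CPM per kilobase, although 67.3% of the exonic bases of Gins2 overlap Gse1 and its level is therefore uncertain. The kits read along transcripts differently, and the part of that in these levels was not tested. Over the 39 members, the difference between settings had a Spearman rho of 0.19 with transcript length and of -0.21 with GC content, where the genes share the libraries.

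**Figure D2:**
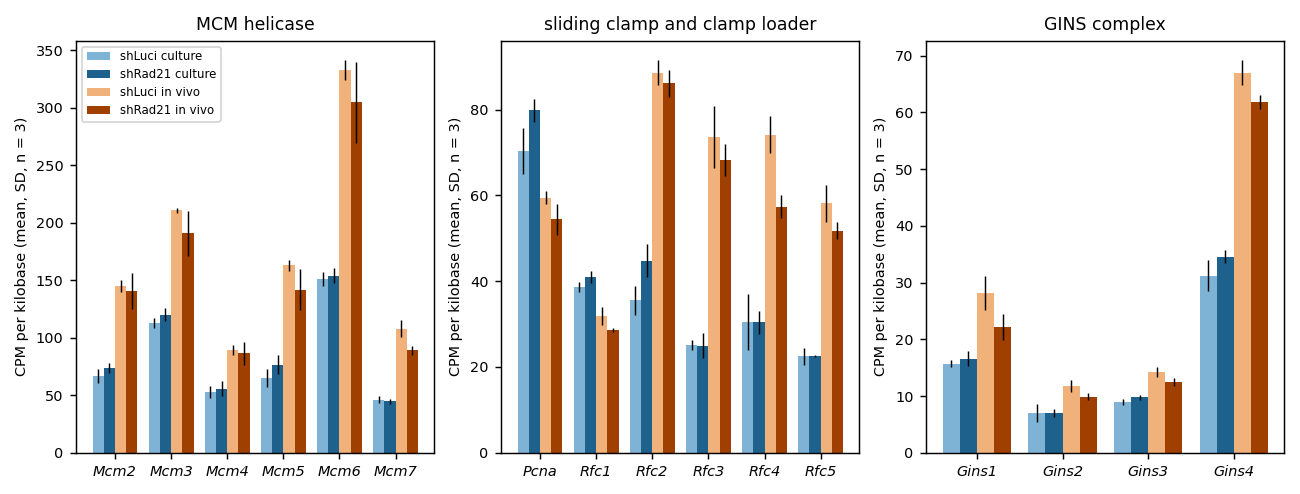
Mean CPM per kilobase of the principal transcript for the subunits of the MCM helicase, of the clamp with its loader, and of GINS in the 4 groups, with the SD of 3 libraries as error bars. Mcm6 and Gins4 are the tallest bars of their complexes in every group, and Pcna and Rfc1 are the genes whose culture bars stand above the in vivo bars.

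Knockdown of Rad21 in vivo was compared next. Nearly all replication genes had lower values in shRad21 than in shLuci LSK cells of transplanted mice, by small amounts, and 5 passed the test. Those 5 of 39 members (12.8%) fell, against 5.32% of all 15938 genes tested, and 0 rose, against 5.65% of all genes. The log2 fold change was negative for 38 members, with a median of -0.17, against -0.002 over all genes. The groups did not overlap, with shRad21 lower, for 16 members, against 15.8% of all genes. At an unadjusted p under 0.05 there were 15 members, against 24.1% of all genes. The 5 that fell were Tyms, Rfc4, Cdt1, Mcm7 and Tipin, of different steps of replication.

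**Figure D3:**
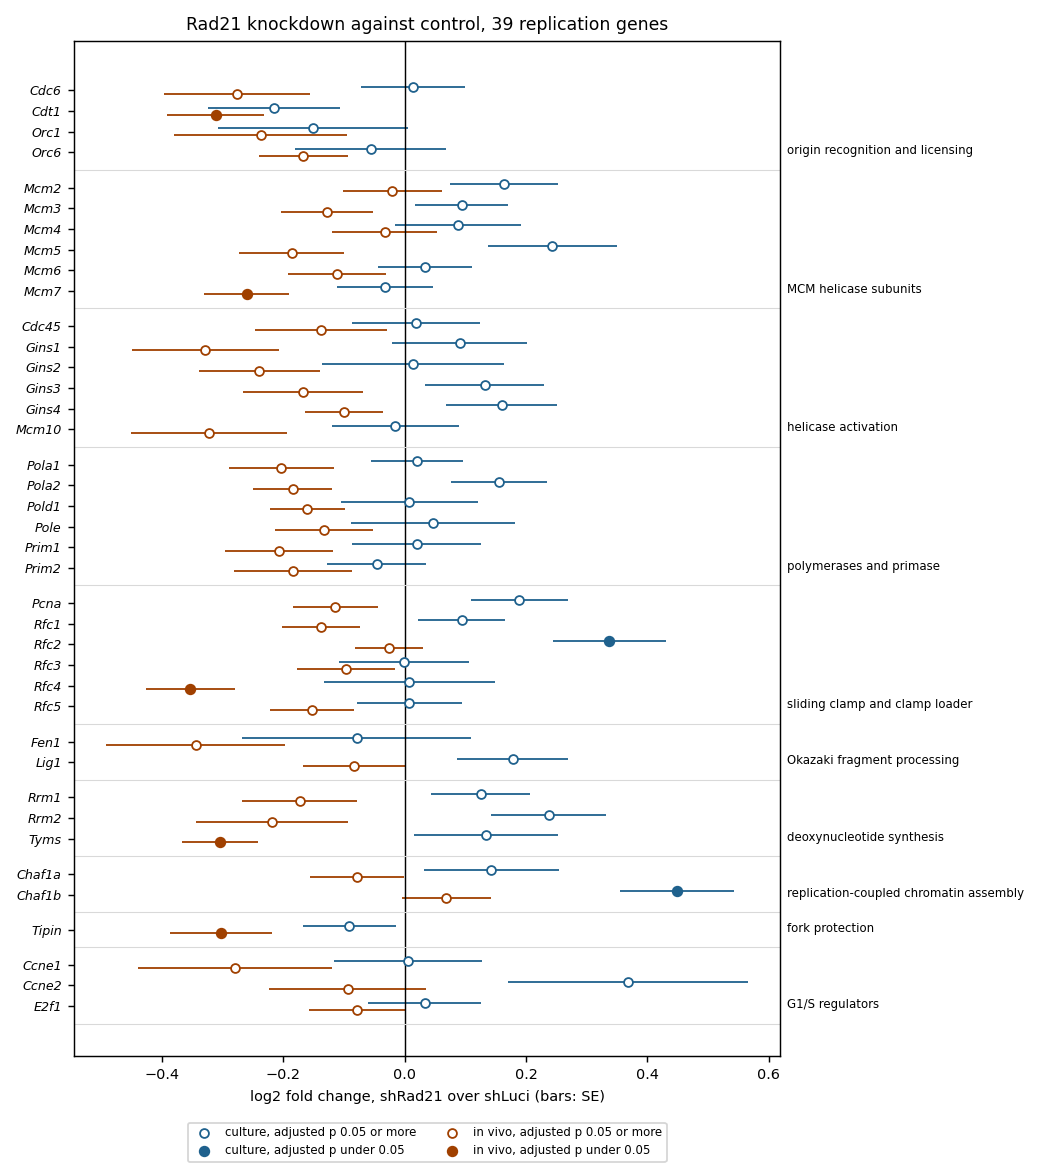
Log2 fold change of shRad21 over shLuci (x axis) for each of the 39 members in culture (blue) and in vivo (brown), ordered by role, with standard errors as bars and filled points for an edgeR adjusted p under 0.05. In vivo 38 points lie left of 0, whereas in culture 30 lie to its right.

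Tyms (chr5:30058202-30073617, minus strand) was at 152.6, 148.7 and 154.2 CPM in the shLuci and at 115.5, 126.7 and 122.6 CPM in the shRad21 in vivo libraries. It fell by 0.30 on the log2 scale (SE 0.06, edgeR's Benjamini-Hochberg adjusted p = 0.0129), or to 0.81-fold, and the groups did not overlap. Rfc4 (chr16:23113943-23127737, minus strand), a small subunit of the clamp loader, was at 94.01, 93.99 and 84.85 CPM against 72.71, 71.98 and 66.59 CPM. It fell by 0.35 on the log2 scale (SE 0.07, edgeR's Benjamini-Hochberg adjusted p = 0.0133), the largest fall of the 5, with all shRad21 libraries below all controls. Of its exonic bases, 12.7% are shared with Eif4a2.

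Cdt1 (chr8:122568015-122573554, plus strand), which loads the MCM helicase at origins, was at 126.2, 123.8 and 119.2 CPM against 94.59, 108.6 and 91.07 CPM. It fell by 0.31 on the log2 scale (SE 0.08, edgeR's Benjamini-Hochberg adjusted p = 0.0344), with shRad21 replicate 2 closest to the controls. Mcm7 (chr5:138164583-138172422, minus strand), the called subunit of the helicase, was at 343.3, 320.0 and 297.6 CPM against 257.9, 278.1 and 257.5 CPM. It fell by 0.26 on the log2 scale (SE 0.07, edgeR's Benjamini-Hochberg adjusted p = 0.0421), and here too replicate 2 was the highest of the shRad21 libraries without reaching the controls. Mcm7 shares 12.6% of its exonic bases with neighbouring genes and 16.1% of its 51-base words with other genes, which makes its counts less certain.

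Tipin (chr9:64281581-64305424, plus strand), which stabilizes stalled forks with Timeless, was at 202.1, 195.3 and 173.3 CPM against 163.0, 156.4 and 138.3 CPM. It fell by 0.30 on the log2 scale (SE 0.08, edgeR's Benjamini-Hochberg adjusted p = 0.0472), and the lowest control library stood just above the highest shRad21 library. This call was lost with library-size scaling and with GC and length offsets, with edgeR's adjusted p up to 0.0971.

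The other 34 members did not pass, with log2 fold changes between -0.34 and 0.07 and standard errors between 0.06 and 0.16. For role groups with no call, the member with the highest mean level over all 12 libraries is given. Gins4 of helicase activation was at 87.83, 93.59 and 89.59 CPM in the shLuci and at 81.41, 84.47 and 84.20 CPM in the shRad21 libraries, which did not overlap (log2 fold change -0.10, SE 0.06). Pold1 of the polymerases was at 354.1, 322.3 and 319.6 against 295.9, 303.1 and 282.8 CPM, also without overlap (-0.16, SE 0.06). Lig1 of Okazaki fragment processing was at 217.3, 206.8 and 195.8 against 187.1, 215.6 and 175.8 CPM (-0.08, SE 0.09), and replicate 2 lay among the controls. E2f1 of the G1/S regulators was at 113.4, 98.23 and 113.7 against 96.56, 109.0 and 98.97 CPM (-0.08, SE 0.08), with groups that overlapped. The MCM subunits other than Mcm7 lay between -0.02 for Mcm2 and -0.19 for Mcm5. Chaf1b, a subunit of the chromatin assembly factor, had the positive value, 0.07 (SE 0.07).

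The count of 5 rested on single libraries. It was 12 without shRad21 replicate 2, the library with the higher levels, 1 without shRad21 replicate 1 and 0 without shRad21 replicate 3. It was 2 without shLuci replicate 1, 1 without shLuci replicate 2 and 4 without shLuci replicate 3. Over all genes, 848 fell in the full fit, and 524, 796 and 456 fell without shRad21 replicates 1, 2 and 3. Without shLuci replicates 1, 2 and 3, 679, 555 and 713 of all genes fell. The median log2 fold change of the members lay between -0.23 and -0.13 in these fits, and between 35 and 38 members were negative. The members held between 0.785 and 0.819% of the counts in the shLuci in vivo libraries, and 0.705, 0.804 and 0.696% in the shRad21 libraries.

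Other markers moved in the same comparison. Of the B-cell markers, 3 of 4 fell, and their sum was between 81.6 and 109 CPM in shLuci and between 53.4 and 70.0 CPM in shRad21 in vivo cells. Of 6 granulocyte and monocyte markers, 3 fell, with sums between 1340 and 1940 CPM and between 972 and 1230 CPM. Of 3 megakaryocyte markers, 2 rose, with sums between 215 and 280 CPM and between 395 and 550 CPM, and of the 9 LSK markers 4 rose and 3 fell. Of 5 erythroid markers 1 fell, with sums between 43.4 and 63.5 and between 39.6 and 50.4 CPM. The 4 T-cell markers were near 0, with sums of at most 3.47 CPM. The part of a changed mixture of cells in the replication genes was not tested.

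**Figure D4:**
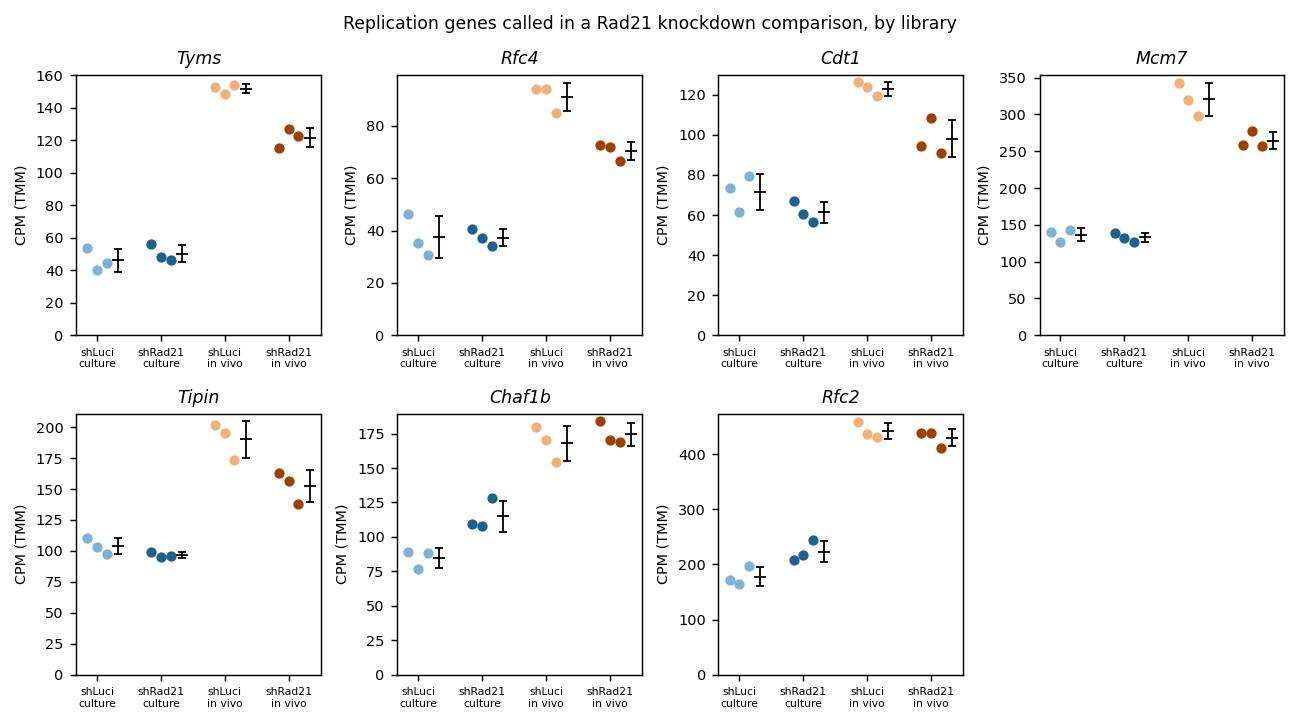
CPM (TMM scale, y axis from 0) in each of the 12 libraries for the 7 members that changed in a Rad21 knockdown comparison, with the mean and SD of 3 libraries beside the points of each group. Tyms, Rfc4, Cdt1, Mcm7 and Tipin are lower in shRad21 than in shLuci in vivo, and Chaf1b and Rfc2 are higher in shRad21 than in shLuci in culture.

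In culture, few replication genes changed with the knockdown. By edgeR's test, 2 of the 39 members (5.13%) rose, near the 6.18% of all 15543 genes tested, and 0 fell, against 8.06% of all genes. The median log2 fold change was 0.03, against -0.004 over all genes, with 30 members positive and 9 negative. For 5 members the shRad21 libraries lay above all shLuci libraries, against 15.3% of all genes. At an unadjusted p under 0.05 there were 5 members, against 27% of all genes. The members held between 0.358 and 0.407% of the counts in the shLuci and between 0.405 and 0.451% in the shRad21 culture libraries.

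Chaf1b (chr16:93883901-93906115, plus strand), which places histones on newly copied DNA, was at 89.28, 76.66 and 88.37 CPM in the shLuci and at 109.2, 107.9 and 128.0 CPM in the shRad21 culture libraries. It rose by 0.45 on the log2 scale (SE 0.09, edgeR's Benjamini-Hochberg adjusted p = 0.00892), or 1.37-fold, without overlap, and the call held without any single library (largest adjusted p 0.0463). Its partner Chaf1a was at 75.5 ± 11.5 and 82.9 ± 6.21 CPM (mean ± SD, n = 3) and was not called. Rfc2 (chr5:134581366-134601805, plus strand), a small subunit of the clamp loader, was at 171.7, 165.0 and 197.0 CPM against 208.3, 217.0 and 245.3 CPM. It rose by 0.34 on the log2 scale (SE 0.09, edgeR's Benjamini-Hochberg adjusted p = 0.0349), also without overlap, but this call was lost without any of 4 libraries (shLuci replicates 1 and 2, shRad21 replicates 2 and 3), with adjusted p up to 0.139. Of its exonic bases, 15.1% are shared with Lat2.

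No label gives a pairing of the culture libraries, but those of the same number deviated together in these data and were taken as pairs. With the replicate number as a block 3 members rose, against 9.31% of all genes: Chaf1b, Rfc2 and the G1/S cyclin Ccne2 (0.39, edgeR's adjusted p = 0.0108 with the block). Ccne2 was at 44.36, 28.03 and 24.43 CPM in shLuci and at 49.22, 36.47 and 37.69 CPM in shRad21 replicates 1, 2 and 3. Each shRad21 library was above the shLuci library of its number, while the groups overlapped. Without the block Ccne2 gave 0.37 (SE 0.20) and was not called. It shares 17.4% of its exonic bases with Ints8.

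The other members in culture lay between -0.21 for Cdt1 and 0.24 for Mcm5 (SE 0.11 for both). Of the same 4 members of other role groups, chosen by their mean over all 12 libraries, Gins4 was at 45.55, 42.46 and 38.16 CPM in shLuci and at 46.54, 45.26 and 48.19 CPM in shRad21 libraries. Pold1 was at 122.2, 89.85 and 122.1 against 117.7, 108.3 and 108.0 CPM, and its groups overlapped. Lig1 was at 139.1, 125.1 and 152.9 against 167.5, 155.5 and 146.4 CPM. E2f1 was at 68.08, 54.99 and 58.20 against 61.71, 61.78 and 60.79 CPM, and the groups of all 4 genes overlapped. Of the 5 genes that fell in vivo, Tyms gave 0.13 (SE 0.12), Rfc4 0.01 (SE 0.14), Mcm7 -0.03 (SE 0.08), Tipin -0.09 (SE 0.08) and Cdt1 -0.21 (SE 0.11) in culture, none of them called. Without shLuci replicate 2, which had the lowest levels, 1 member rose, against 569 of 15913 genes. Of the members 19 were positive and 20 negative, and the median was -0.01. Without shRad21 replicate 1, which had the highest levels, 2 members rose, against 783 of 15719 genes. Here 23 were positive and 16 negative, and the median was 0.01.

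Markers also moved in culture. All 4 tested of the 6 granulocyte and monocyte markers fell, with sums between 61.9 and 114 CPM in shLuci and between 21.6 and 35.1 CPM in shRad21 libraries. Of 5 erythroid markers 1 fell, with sums between 150 and 187 CPM and between 78.0 and 109 CPM. Of the LSK markers 4 rose and 2 fell. Kit, which helps define LSK cells, was among the falls, at 741 ± 77.8 CPM in shLuci and 276 ± 14.7 CPM in shRad21 libraries (mean ± SD, n = 3). Of 3 megakaryocyte markers 1 rose and 1 fell, and of 4 B-cell markers 1 fell, with sums of 26.7 ± 0.262 and 19.4 ± 1.95 CPM (mean ± SD, n = 3). Their part in the values of Chaf1b and Rfc2 was not tested.

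The difference between the 2 knockdown effects was tested itself, as the interaction of knockdown and setting in all 12 libraries. The value (culture minus in vivo) was positive for all 39 members, from 0.10 for Orc1 to 0.47 for Ccne2, with a median of 0.24 against 0.01 over all genes. By edgeR's test 0 of 39 members passed, against 1.64% of all 17050 genes with a higher and 3.03% with a lower effect in culture. At an unadjusted p under 0.05 there were 15 members, against 17.7% of all genes. DESeq2 called 6, against 1.53% of 32923 genes, a set that was not filtered by counts and is not like edgeR's 17050. Without shRad21 in vivo replicate 2 edgeR called 3 members higher, against 305 of 17619 genes. Without shLuci culture replicate 2 or shRad21 culture replicate 1 it called 0, where 153 and 184 of all genes were higher. The lowest adjusted p was that of Pola2, which gave 0.35 (SE 0.10, edgeR's Benjamini-Hochberg adjusted p = 0.0614). With the replicate block, Rfc2, Tyms and Chaf1b passed, 3 members against 1.95% of all genes. That block also paired the in vivo libraries, which did not deviate together by number. Of the 39 members, 29 were positive in culture and negative in vivo, 9 were negative in both and Chaf1b was positive in both.

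Genes around the members were read from lists that, like the members, were chosen with earlier results of these data known. Of 62 other replication genes, 11 (17.7%) fell with the knockdown in vivo, against 5.32% of all genes, and 1 (1.61%) rose, against 5.65%. Their median log2 fold change was -0.15. In culture 1 (1.61%) fell, against 8.06% of all genes, and 0 rose, against 6.18%, with a median of 0.02. Among the called genes, the largest changes in vivo were those of the transcription factor E2f2 (-0.75, SE 0.11, edgeR's Benjamini-Hochberg adjusted p = 0.00277), of Chtf8, a subunit of an alternative clamp loader (0.46, SE 0.10), of the helicase Recql4 (-0.43, SE 0.12) and of the S-phase cyclin Ccna2 (-0.39, SE 0.10). Nearly all exonic bases of Chtf8 overlap another gene model of that name, so its counts are uncertain. Of the 12 calls in vivo, 1 held without each library in turn. In culture the gene that fell was Rb1, the retinoblastoma protein that restrains E2F (-0.44, SE 0.13, edgeR's Benjamini-Hochberg adjusted p = 0.0404). The call of Rb1 was lost without at least 1 library, with edgeR's adjusted p up to 0.16. Between control cells, 32 (51.6%) were lower and 16 (25.8%) higher in culture, against 37.1% of all genes in each direction, with a median of -0.26. The higher ones included Chtf8 (2.36) and Clspn (1.84), a mediator of the replication checkpoint, and the lower ones Chtf18 (-1.80), another subunit of the alternative loader, while Rrm2b, a ribonucleotide reductase subunit used outside S phase, was higher (1.79).

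Genes of mitosis moved further than the members in vivo. Of 30 listed, 24 (80%) fell with the knockdown, against 5.32% of all genes, and 0 rose, against 5.65%. Their median log2 fold change was -0.43. The largest falls were those of the spindle motor Kif23 (-0.62, SE 0.08), the topoisomerase Top2a (-0.60, SE 0.10), the centromeric histone Cenpa (-0.55, SE 0.10) and the ubiquitin-conjugating enzyme Ube2c (-0.55, SE 0.07). Of these 24 calls, 10 held without each library in turn, with edgeR's adjusted p up to 0.152 for the others. In culture 0 of 30 were called by edgeR, against 6.18% of all genes higher and 8.06% lower. The median was -0.05, and 5 had an unadjusted p under 0.05 by edgeR, against 27% of all genes. Between control cells 17 (56.7%) were lower and 10 (33.3%) higher in culture, against 37.1% of all genes in each direction, with a median of -0.27. The largest changes went both ways, with Mki67 (1.47) and Anln (1.04) higher in culture and Spc25 (-1.03) and Ccnb1 (-0.91) lower. The members with their median of -0.17 in vivo thus lay between the mitosis genes and all genes, a comparison of medians that was not tested.

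**Figure D5:**
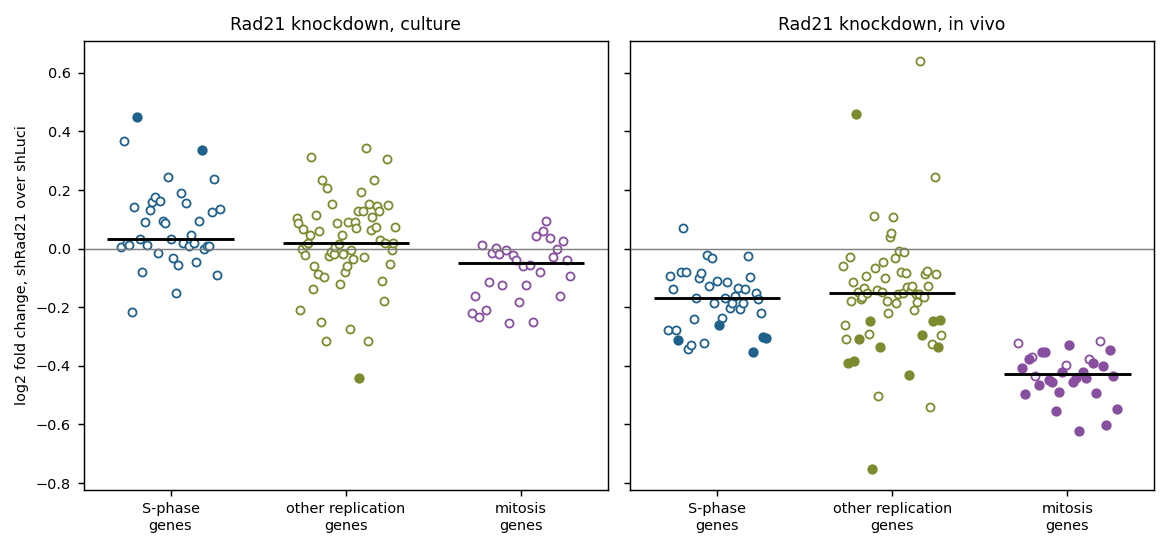
Log2 fold change of shRad21 over shLuci (y axis) for the 39 members, 62 other replication genes and 30 mitosis genes, in culture (left) and in vivo (right), with filled points for an edgeR adjusted p under 0.05 and a line at each median. In vivo the medians are -0.17, -0.15 and -0.43, and all 30 mitosis genes lie below 0.

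Members with and without an E2F word were set side by side, a description that was not tested. In vivo, the 13 members with a word in the window had a median log2 fold change of -0.18 and the 17 without had -0.17, and 2 of each had fallen. Between control cells the medians were -0.90 and -0.78. There 12 members with a word were lower in culture, and of those without, 14 were lower and 2 higher. For the knockdown in culture the medians were 0.02 and 0.03.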

How the data were processed

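RNA-seq counts from 12 libraries in 4 groups of 3 were used, grouped by their labels. Per the submitters' notes and the paper's methods, the authors depleted rRNA reads, trimmed the reads, mapped them to GRCm38 with TopHat2 2.0.11 and counted them on genes with HTSeq 0.6.1. The deposited values are these raw counts, without normalization. The annotation release and strand setting are not given in the sources used here, so reads of overlapping genes can be shared.

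Genes were kept by filterByExpr (minimum count 10, minimum total 15), scaled by TMM and tested with the two-sided quasi-likelihood test of edgeR 4.0.16 in R 4.3.3, with Benjamini-Hochberg adjustment over all genes tested and a threshold of 0.05. Knockdowns were fitted within each experiment, and the other comparisons in all 12 libraries. Log2 fold changes come from these fits, while CPM are on the scale of all 12 libraries. Lengths and overlaps are from GENCODE M21, which matched 45229 of 46078 genes, and promoters from RefSeq (GRCm38.p6). Python 3.11.15, pandas 2.3.3 and matplotlib 3.10.9 were used for the rest. The knockdown tests were tried on simulated counts in which 200 genes changed by 1 on the log2 scale. In culture 83.5% of these were recovered and 8.24% of the called genes were false, and in vivo 71% and 7.19%. Changes as small as those of the members were not simulated.

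Values in every library were printed for members called in a knockdown and, for a role group with no call, for its member with the highest mean CPM. From other lists at most 4 called genes with the largest change were named per comparison. Members outside this rule that are named with a fold change or level were picked after their values were seen. The members and lists were chosen with earlier results of these data known. Alternatives were DESeq2 1.42.0, other scalings and filters, GC and length offsets, the replicate block, 1 model of all libraries and the omission of each library. Same-numbered culture libraries deviated together (correlations of 0.216, 0.251 and 0.262 over 15543 genes), so the numbers were taken to pair them. Those in vivo did not (0.024, 0.035 and 0.0694). The replicate block nevertheless paired them too, in vivo and in the fits of all 12 libraries.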

Additional observations from a re-analysis of the deposited data

Results flagged for a closer look

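No member's knockdown effect differed between culture and in vivo past the threshold of edgeR's interaction test, but 6 genes of the other lists did, all with a higher effect in culture. They were 2 of 62 other replication genes (3.23%) and 4 of 30 mitosis genes (13.3%), against 1.64% of all genes. Among replication genes these were Tk1, the thymidine kinase of S phase, with a difference of 0.56 (SE 0.15, edgeR's Benjamini-Hochberg adjusted p = 0.0395), and Rpa1, the large subunit of the single-strand DNA binding protein, with 0.31 (SE 0.08, adjusted p = 0.0461 by edgeR, and 0.0698 with the replicate block). Tk1 was at 51.3 ± 8.45 CPM in shLuci and 63.0 ± 4.14 CPM in shRad21 culture cells, and at 67.9 ± 2.15 and 56.5 ± 1.97 CPM in vivo (mean ± SD, n = 3). Rpa1 was at 166 ± 2.36 and 183 ± 2.05 CPM in culture, and at 257 ± 0.379 and 228 ± 12.0 CPM in vivo.

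Among mitosis genes, the differences were 0.54 for the kinase Plk1 (SE 0.13, adjusted p = 0.0299 by edgeR), 0.49 for Nuf2 (SE 0.13, adjusted p = 0.0497 by edgeR), 0.46 for the kinase Cdk1 (SE 0.11, adjusted p = 0.0247 by edgeR) and 0.41 for Spc25 (SE 0.11, adjusted p = 0.0497 by edgeR). With the replicate block, Nuf2 (0.0505) and Spc25 (0.0595) missed the threshold of 0.05 on edgeR's adjusted p. Each of the 6 calls was lost without at least 1 library, with edgeR's adjusted p up to 0.136 for Rpa1, 0.0986 for Tk1, 0.126 for Spc25, 0.124 for Nuf2, 0.0933 for Plk1 and 0.074 for Cdk1. Nuf2 and Spc25 belong to the complex that ties chromosomes to the spindle. In vivo, Plk1 gave -0.49, Cdk1 -0.46, Spc25 -0.40 and Nuf2 -0.39, whereas in culture they gave 0.04, -0.003, 0.00 and 0.09.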

How the results depend on the processing

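The direction of the members' medians in vivo, between control cells and for the difference of the effects held under every alternative, while the counts of called members depended on single libraries. In culture, 4 members rose with no filter, where 1380 of 26672 genes rose. With the replicate block and GC and length offsets 5 members rose, where 1597 of 15543 genes rose. When a library was left out, between 1 and 3 members rose, and between 549 and 1279 of all genes. In vivo, between 0 and 12 members fell when a library was left out, and between 456 and 796 of all genes. Between control cells, 1 member was higher in culture with upper-quartile scaling, with GC and length offsets, and with these offsets and the replicate block. With scaling by library size only, 0 were higher. In these 4 fits between 5458 and 6324 of 17050 genes were higher. That scaling moved the median of all genes to -0.18 and that of the members to -0.96, and upper-quartile scaling moved them to -0.12 and -0.90. Orc6 turned to 0.035 with GC and length offsets and to 0.024 with the block added. For the difference between the effects, 6 members were higher with DESeq2 (504 of 32923 genes) and 3 with no filter (453 of 32923). With the replicate block 3 were higher (332 of 17050), and with the block and GC and length offsets 4 (479 of 17050). When a library was left out, between 0 and 3 members were higher, and between 135 and 305 of all genes. In vivo the replicate block left the count at 5, where 805 of 15938 genes fell. The cause of these changes was not tested. The members held at least 96 counts in each library, and counting error weighs most on the low members such as Fen1.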
